A study of Mus musculus with 18 samples.

Results

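The gain of the PRMT1 knockout (KO) effect from day 2 to day 7 was measured as a difference of differences, which is the KO minus WT difference at day 7 less the KO minus WT difference at day 2, for every gene on the log2 scale. It rested on the 12 libraries of days 2 and 7 out of the 18 in the series, 3 per group. KO mice were PRMT1 fl/fl;Vil-CreERT2 (PRMT1indΔIEC) and WT mice were PRMT1 fl/fl littermates without Cre, matched for age and gender according to the methods, and both genotypes were young adults given tamoxifen by repeated injection. The villin promoter confines the recombinase to the intestinal epithelium, so other cells of a crypt preparation keep the gene. Day 2 mice were taken before the series of injections was complete and day 7 mice after it, so time since the first injection and the amount of tamoxifen cannot be told apart, and neither can loss of Prmt1 and the activity of CreERT2, which WT mice lack. Each library was ribosome-depleted total RNA of small intestinal crypts, from 1 mouse each as far as the labels and methods tell.

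PRMT1 is the main enzyme that places asymmetric dimethyl marks on arginine, on histones and on many RNA-binding proteins. Crypts of the small intestine hold the stem cells, the Paneth cells that guard them with antimicrobial peptides, and dividing progenitors whose daughters become absorptive enterocytes or secretory goblet, tuft and enteroendocrine cells. The epithelium renews itself from these stem cells within days.

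The 12 libraries held between 14885483 and 31493484 assigned fragments. Prmt1 itself was at 27.1, 26.5 and 26.1 CPM (fragments of a gene scaled to a common library total) in WT and 15.8, 13.1 and 14.3 CPM in KO at day 2, and at 22.3, 25.9 and 23.1 CPM in WT and 13.6, 17.4 and 16.4 CPM in KO at day 7. KO and WT did not overlap on either day, and the log2 gain of 0.30 (SE 0.20) was not called (adjusted p = 0.468). Esr1, whose human counterpart supplies the hormone-binding part of CreERT2, was higher in KO on both days, without overlap, with a log2 gain of -0.50 (adjusted p = 0.661). Xist, the RNA that coats the inactive X chromosome, is among the 20 genes that the study left out. It was at 785 CPM or more in replicate 3 of both genotypes at day 2 and in replicates 1 and 2 of both at day 7, and at most 6.16 CPM in the other 6 libraries, so the number of high libraries was equal in KO and WT within a day and differed between days. With Xist as a term, coded as high or low, the gain was called for 1017 genes, 908 of them among the 934 given below. With the product of this term and KO as a further term, the gain was called for 731 genes, with 665 shared. KO day 7 replicate 1 had the highest summed level of NRF2 targets and the lowest of Paneth cell and stem cell genes among the 12 libraries.

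Of 21349 genes tested, the gain passed an adjusted p of 0.05 (edgeR quasi-likelihood test, Benjamini-Hochberg; "called" below) for 934, which is 4.37%. The gain was higher for 285 genes (1.33%) and lower for 649 (3.04%), and 3858 genes had an unadjusted p under 0.05. The median log2 gain was 0.00 over all genes tested, 1.43 over the genes called higher and -1.27 over those called lower. At day 7, the 3 KO libraries did not overlap the 3 WT libraries for 281 of the 285 and 645 of the 649 genes, which were chosen on a gain that contains these values. Over all genes tested, KO lay above WT without overlap for 15.9% and below for 17.7%. DESeq2 called 512 genes higher and 889 lower, and 925 of the 934 genes were among them. Without KO day 7 replicate 1 the gain was called for 431 genes, and without KO day 7 replicate 3 for 1295.

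**Figure D1:**
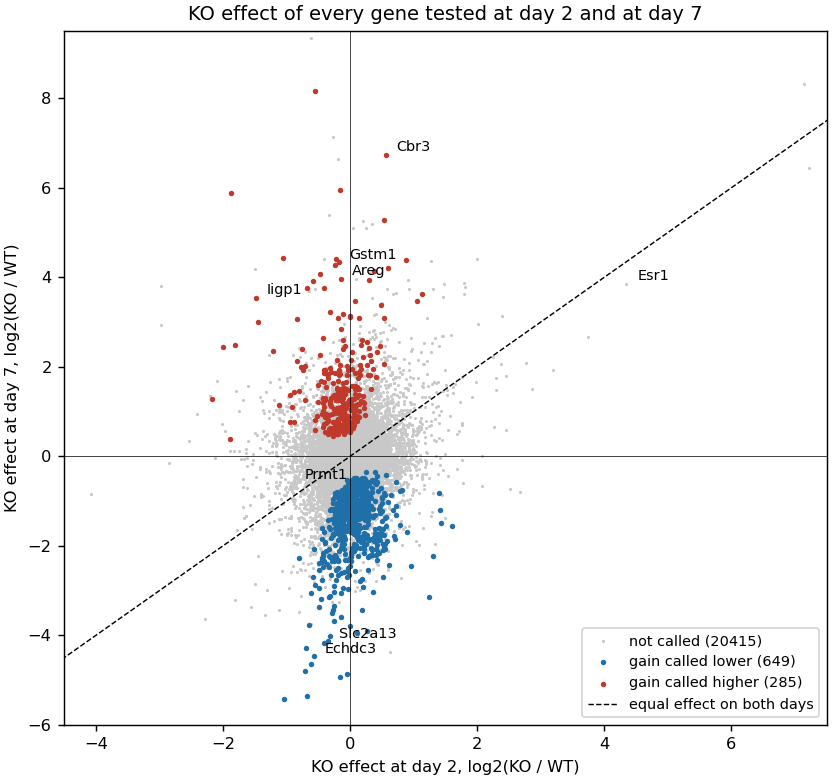
Each point is 1 of the 21349 genes tested, with the log2 ratio of KO to WT at day 2 on the horizontal axis and at day 7 on the vertical axis; red and blue mark the 285 and 649 genes whose gain was called higher and lower, and the dashed line marks equal effects. Of the called genes, 842 of 934 lie within 0.5 of 0 at day 2, as do 19185 of all 21349, while Esr1, which was not called, lies far to the right at both days.

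Among the 934 genes, 842 differed between KO and WT by less than 0.5 on the log2 scale at day 2 and 19 by more than 1. Over all 21349 genes these counts were 19185 and 374, so the shares were near those of all genes. At day 2 the median KO effect was -0.14 for the genes gained higher and 0.03 for those gained lower, and at day 7 it was 1.26 and -1.23. The day 2 effect enters the gain with a minus sign, and the 2 were opposite in sign for 203 of the 285 genes (71.2%) and 364 of the 649 (56.1%), beside 61.5% of all genes tested.

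Most of the movement was in the KO mice. From day 2 to day 7, the fitted change was larger in KO than in WT for 805 of the 934 genes (86.2%), against 54.5% of all genes tested. Genes gained higher had a median log2 change of 1.03 in KO and -0.39 in WT, and genes gained lower had -1.09 in KO and 0.22 in WT. For 70 of the genes gained higher and 59 of those gained lower, the larger change was the one in WT.

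**Figure D2:**
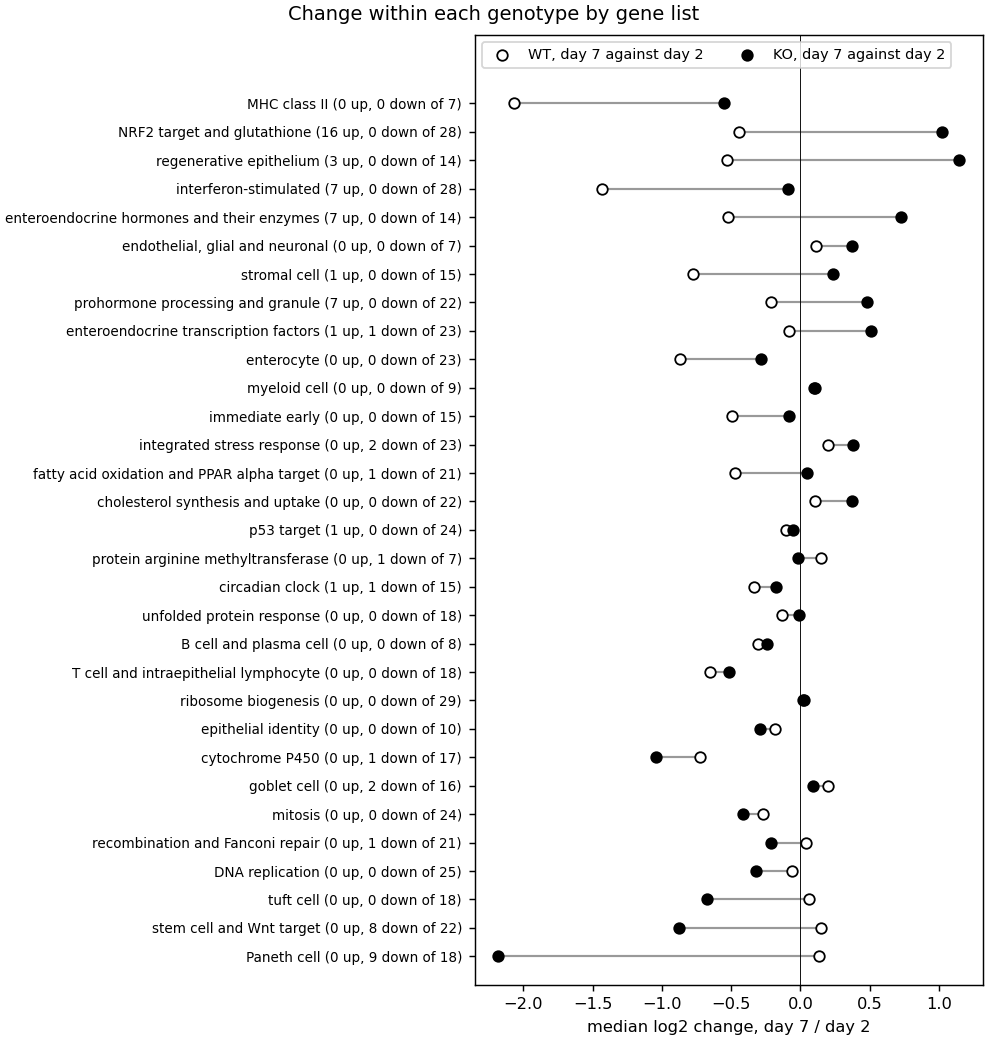
Each row is 1 of 31 gene lists, with the median log2 change from day 2 to day 7 over its tested members in WT (open circle) and in KO (filled circle); the distance between the circles approximates the gain, and the numbers called are in the row's name. The medians in KO were -2.19 for Paneth cell and -0.87 for stem cell genes, those of NRF2 targets were 1.02 in KO and -0.45 in WT, and those of interferon-stimulated genes -0.09 in KO and -1.43 in WT.

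NRF2 is the transcription factor that turns on glutathione synthesis, NADPH supply and detoxifying enzymes when electrophiles or oxidants modify its partner KEAP1. Of 28 tested members of the list, 16 were called higher and 0 lower (57.1%, beside 1.33% of all genes), all 28 had a positive gain, and the median log2 gain was 1.45. Cbr3, a carbonyl reductase, was at 0.574, 0.934 and 1.56 CPM in WT and 2.13, 0.742 and 1.73 CPM in KO at day 2. Cbr3 was then at 0.504, 0.511 and 0.569 CPM in WT and 89.4, 52.6 and 29.8 CPM in KO at day 7. The KO libraries of day 7 stood above every other library, which gave a log2 gain of 6.19 (SE 0.78, adjusted p = 0.000374). Gstm1, a glutathione transferase of the mu class, was at 69.3, 45.4 and 107 CPM in WT and 65.1, 46.9 and 84.3 CPM in KO at day 2. Gstm1 was then at 47.6, 45.6 and 71.3 CPM in WT and 1757, 936 and 637 CPM in KO at day 7. KO and WT overlapped at day 2 and were far apart at day 7, with a log2 gain of 4.52 (SE 0.60, adjusted p = 0.000564). Gsta3, of the alpha class, was at 11.7, 5.96 and 7.61 CPM in WT and 7.79, 7.25 and 10.1 CPM in KO at day 2. Gsta3 was then at 4.39, 5.75 and 6.74 CPM in WT and 58.2, 48.4 and 42.1 CPM in KO at day 7, with a log2 gain of 3.15 (SE 0.34, adjusted p = 5.99e-05).

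For 15 of the 16 called members the KO change was the larger. Gsta2 had a log2 gain of 2.96 (SE 0.53, adjusted p = 0.0032) and changed by 2.14 in KO and -0.81 in WT. The other called members covered glutathione synthesis (Gclc and Gclm, the subunits of its rate-limiting ligase), its recycling (Gsr), further transferases (Gstm2, Gstm3 and Gstm4), quinone and carbonyl reduction (Nqo1 and Cbr1), NADPH supply (G6pdx, Pgd and Me1) and Osgin1. Transferases of 1 class are near-identical in parts, and fragments that fit several genes were not counted, so the split among them is uncertain. Hmox1 and Slc7a11, also textbook targets, were not called, at log2 gains of 1.45 (adjusted p = 0.605) and 0.05 (adjusted p = 0.985). The count of called members moved to 9 without KO day 2 replicate 2 or KO day 7 replicate 1, to 10 without KO day 2 replicate 1, WT day 2 replicate 3 or WT day 7 replicate 2 or 3, and to 20 without KO day 7 replicate 3, and DESeq2 called 22. In summed CPM, the list was at 2441 to 3635 in WT and 2471 to 3311 in KO at day 2, and at 2089 to 2446 in WT and 4045 to 7834 in KO at day 7.

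NRF2 binds the antioxidant response element, whose core reads TGACNNNGC. Among the 14 called members with a RefSeq promoter in GRCm38.p6 (the 250 bases before the start), 3 genes held this core on either strand, which is 21.4%. The share was 16.7% of the 24 listed genes with a promoter, 16.2% of the genes gained higher, 14.3% of those gained lower and 13.7% of the 12259 tested genes with a promoter. The promoters of Gsta3 and Gclm are shown as examples of called genes, and each holds 1 copy, in capitals, on the given strand of Gsta3 (chr1:21240335-21240584, plus strand) and on the other strand of Gclm (chr3:122245307-122245556, plus strand). G6pdx, the remaining called member with the core, also holds 1 copy and is not shown. The match is of letters and was not tested for binding.
Gsta3: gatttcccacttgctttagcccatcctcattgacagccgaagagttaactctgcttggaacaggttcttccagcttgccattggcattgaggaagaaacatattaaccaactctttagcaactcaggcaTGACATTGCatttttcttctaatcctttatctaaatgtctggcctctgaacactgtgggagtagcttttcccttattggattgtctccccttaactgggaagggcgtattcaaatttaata
Gclm: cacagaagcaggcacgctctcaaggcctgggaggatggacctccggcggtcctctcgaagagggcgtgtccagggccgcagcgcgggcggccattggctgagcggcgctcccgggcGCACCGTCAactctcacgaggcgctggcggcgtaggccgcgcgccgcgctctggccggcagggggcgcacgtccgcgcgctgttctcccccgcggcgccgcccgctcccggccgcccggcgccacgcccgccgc

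Enteroendocrine cells are the rare hormone-secreting cells of the epithelium, and their hormones are cut from precursors and stored in dense-core granules. Of 14 tested hormone and hormone-enzyme genes, 7 were called higher and 0 lower (50%), with a median log2 gain of 1.19. Of 22 tested granule genes, 7 were called higher and 0 lower (31.8%), with a median of 0.66. The share called higher was 1.33% of all genes. Tph1, the rate-limiting enzyme of serotonin synthesis in enterochromaffin cells, was at 17.5, 14.5 and 21.02 CPM in WT and 16.6, 11.98 and 18.98 CPM in KO at day 2. Tph1 was then at 11.5, 11.4 and 12.2 CPM in WT and 47.1, 43 and 36.2 CPM in KO at day 7. The 3 KO libraries of day 7 were the highest and the 3 WT libraries of day 7 were low, giving a log2 gain of 2.00 (SE 0.26, adjusted p = 0.00023). Gcg, the glucagon and GLP-1 precursor, had a log2 gain of 1.205 (SE 0.28, adjusted p = 0.0194). Cck, the cholecystokinin precursor, had a log2 gain of 1.30 (SE 0.31, adjusted p = 0.0245), and Gip, the incretin of the upper intestine, had a log2 gain of 1.10 (SE 0.27, adjusted p = 0.0245). In each of these genes the KO and WT libraries overlapped at day 2 and not at day 7.

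Sct, Pyy and Ddc completed the called hormone genes, and Ghrl, Sst and Nucb2 were not called, at log2 gains of -0.59, 0.01 and -0.77. In WT, 12 of the 14 members were lower at day 7 than at day 2, and for 2 of the 7 called members the WT change was the larger. Summed over the list, CPM were 282 to 425 in WT and 288 to 380.0 in KO at day 2, and 229.9 to 241 in WT and 401 to 590.4 in KO at day 7. The calls of the hormone genes were close to the threshold, and without KO day 2 replicate 1 the count fell from 7 to 1. Without 1 library at a time, the adjusted p of Gcg reached 0.0567 (without KO day 7 replicate 1), that of Cck 0.0632 (without WT day 7 replicate 2) and that of Gip 0.0717 (without WT day 7 replicate 3), while Tph1 stayed called in each case.

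Among the granule genes, Ptprn, a membrane protein of dense-core granules, was at 1.72, 1.33 and 2.303 CPM in WT and 1.33, 2.11 and 2.46 CPM in KO at day 2. Ptprn was then at 2.48, 1.597 and 2.01 CPM in WT and 9.69, 7.97 and 7.99 CPM in KO at day 7, with a log2 gain of 1.90 (SE 0.37, adjusted p = 0.00587), and KO changed by 2.10 while WT changed by 0.20. Scg2 and Chgb, granins that fill the granule, had log2 gains of 1.63 (adjusted p = 0.00782) and 1.23 (adjusted p = 0.0155), and Cpe, the carboxypeptidase that trims hormone precursors, of 1.14 (adjusted p = 0.00986). These 4 stayed called with any 1 library left out. Chga, Vgf and Stxbp5l were the other members called, and the count of 7 fell to 4 without WT day 2 replicate 1 and was at most 6 with any 1 library left out. In bulk crypts, more cells of a type and more RNA per cell cannot be told apart, and the same holds for losses.

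Of 23 transcription factors that specify enteroendocrine cells, 1 was called higher and 1 lower by edgeR and 2 and 2 by DESeq2. The edgeR calls made up 8.70% of the list, beside 4.37% of all genes. At an unadjusted p under 0.05 there were 10 higher and 2 lower, and the median log2 gain was 0.65, beside 0.66 for granule genes. Without WT day 2 replicate 1 the first of these medians was 0.41. Neurod1, which acts downstream of Neurog3 in the endocrine lineage, was at 4.14, 4.003 and 5.16 CPM in WT and 2.93, 2.45 and 3.88 CPM in KO at day 2. Neurod1 was then at 2.99, 2.88 and 2.93 CPM in WT and 7.43, 5.26 and 7.64 CPM in KO at day 7. All 3 KO libraries lay below WT at day 2 and above WT at day 7, so that the log2 gain of 1.72 (SE 0.30, adjusted p = 0.00272) combined effects of -0.51 and 1.203. Neurog3 itself was not called, with a log2 gain of 0.76 (adjusted p = 0.215). Foxa2 was called lower, with a log2 gain of -1.22 (SE 0.33, adjusted p = 0.0424), and lost its call without 10 of the 12 libraries in turn, up to an adjusted p of 0.119 without KO day 7 replicate 1. Sox4 and Etv1 had log2 gains of -0.80 (adjusted p = 0.0675) and 1.25 (adjusted p = 0.071).

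Paneth cell genes had the lowest median gain of the lists. Of 18 tested markers, 9 were called lower and 0 higher (3.04% of all genes were called lower), all 18 had a negative gain and an unadjusted p under 0.05, and the median log2 gain was -2.35. Itln1, an intelectin lectin of Paneth and goblet cells, was at 979, 1243 and 2278 CPM in WT and 2498, 1516 and 2439.6 CPM in KO at day 2. Itln1 was then at 1960.3, 1574 and 2342 CPM in WT and 165, 613 and 606 CPM in KO at day 7. The KO libraries of day 7 were the lowest of the 12, KO day 7 replicate 1 by far, which gave a log2 gain of -2.61 (SE 0.58, adjusted p = 0.0157). Ang4, an antimicrobial ribonuclease, was at 193, 238 and 425 CPM in WT and 488, 228 and 419.8 CPM in KO at day 2. Ang4 was then at 295, 241 and 368 CPM in WT and 30.2, 81.2 and 85.9 CPM in KO at day 7, with a log2 gain of -2.60 (SE 0.60, adjusted p = 0.0234). The call of Ang4 was lost without 4 of 12 libraries, up to an adjusted p of 0.0646 without WT day 2 replicate 1, while Itln1 stayed called. Pnliprp2, a lipase, had a log2 gain of -2.38 (adjusted p = 0.0248), and the alpha-defensin Defa23 of -2.63 (adjusted p = 0.0254), and each of these calls was lost without 6 of the 12 libraries in turn (up to 0.0638 and 0.0614 without WT day 2 replicate 1). Lyz1, Mmp7, Defa20, Habp2 and Clps were the other members called. The defensins are near-identical copies whose shared fragments were not counted, so their number is uncertain.

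The list was at 9203 to 21749 summed CPM in WT and 11076 to 22385 in KO at day 2, and at 11588 to 19172 in WT and 1849 to 5184 in KO at day 7. Groups overlapped widely at day 2 and not at day 7. The median change from day 2 to day 7 was -2.19 in KO and 0.13 in WT, and all 9 called members moved more in KO. The calls were near the threshold and numbered 1 without KO day 2 replicate 1, WT day 2 replicate 1, WT day 2 replicate 2 or WT day 7 replicate 3, 13 without KO day 2 replicate 2 or WT day 2 replicate 3, and 18 with DESeq2, but 0 with no filter on low counts and 2 with Xist and its product with KO as terms. The median log2 gain stayed between -2.76 and -2.03 over 24 alternatives.

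**Figure D3:**
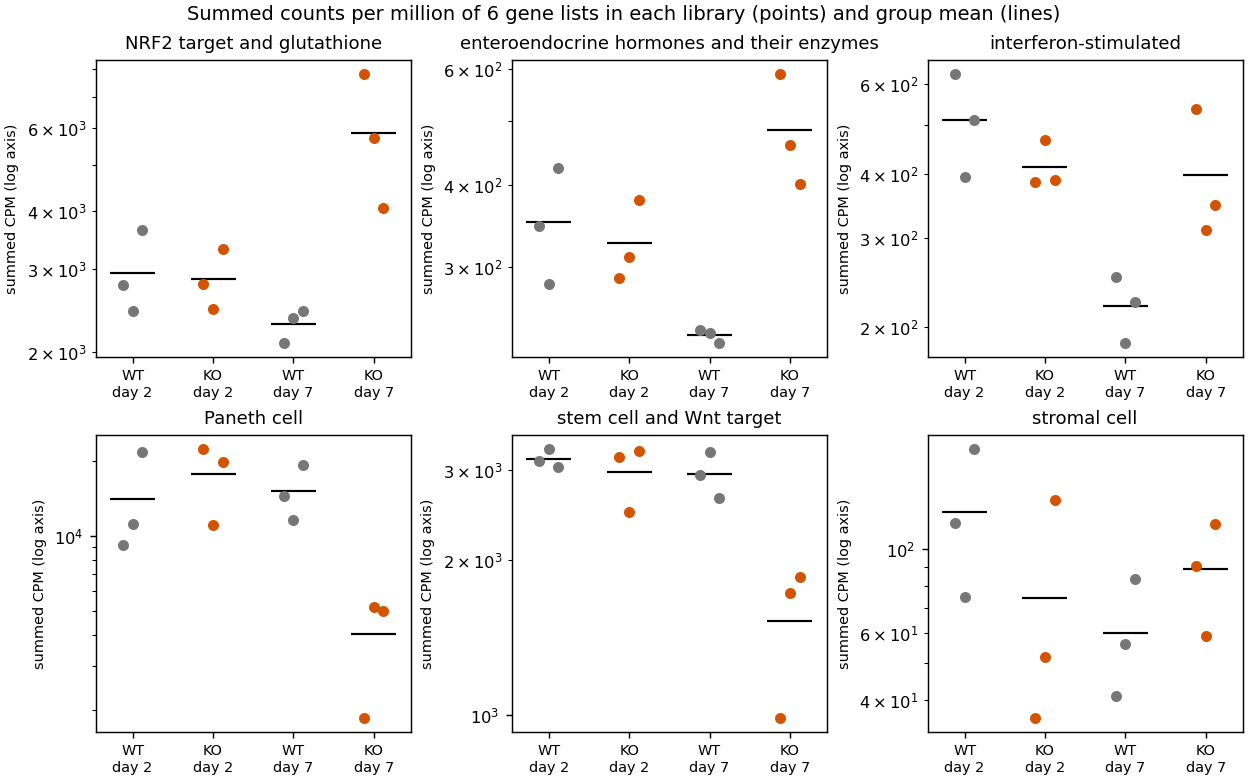
Summed CPM (log axis) of 6 gene lists in each library of days 2 and 7, with 3 points per group and a line at the group mean; WT is grey and KO orange. The KO libraries of day 7 lie above WT for NRF2 targets and hormones and below WT for Paneth and stem cell genes, while for interferon-stimulated genes the WT libraries of day 7 lie below the 9 others and for stromal genes the groups overlap.

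Wnt signals from Paneth cells and the stroma maintain the stem cells at the crypt base. Of 22 tested stem cell and Wnt target genes, 8 were called lower and 0 higher (36.4%, beside 3.04% of all genes called lower). A negative gain was seen for 21, and the median log2 gain was -0.86. Smoc2, a matricellular protein of crypt base stem cells, was at 94.9, 107 and 89.9 CPM in WT and 98.7, 98.99 and 101 CPM in KO at day 2. Smoc2 was then at 112, 133 and 115 CPM in WT and 31.2, 57.5 and 53.5 CPM in KO at day 7. At day 7, all KO libraries lay below every other library, with a log2 gain of -1.38 (SE 0.24, adjusted p = 0.00306). Prom1 (CD133) had a log2 gain of -1.13 (SE 0.21, adjusted p = 0.00525). Nkd1, a feedback inhibitor of Wnt signalling, was at 2.34, 2.36 and 2.64 CPM in WT and 3.59, 3.59 and 3.54 CPM in KO at day 2. Nkd1 was then at 2.91, 2.36 and 3.99 CPM in WT and 0.712, 1.51 and 1.31 CPM in KO at day 7, and its KO libraries lay above WT at day 2 and below WT at day 7, with a log2 gain of -1.93 (SE 0.38, adjusted p = 0.00653).

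Lgr5, the receptor that defines these stem cells, was among the other genes called, with Cdk6, Slc12a2, Tnfrsf19 and Sox9, whereas Olfm4 and Axin2 were not called, at log2 gains of -1.07 (adjusted p = 0.144) and -0.63 (adjusted p = 0.207). Slc12a2 had a log2 gain of -1.17 (adjusted p = 0.0289), whose call was lost without 7 of 12 libraries, up to 0.0783 without KO day 7 replicate 1. The count of 8 fell to 3 without KO day 2 replicate 1 or 3, WT day 2 replicate 1 or 3, or WT day 7 replicate 1 or 2, to 4 or 5 without KO day 7 replicate 1 or 2 or WT day 2 replicate 2, and to 3 when the day 14 libraries were left out of the fit, and was 13 without KO day 7 replicate 3. Summed CPM at day 7 were 2646 to 3258 in WT and 984 to 1852 in KO, after 3041 to 3303 and 2487 to 3269 at day 2.

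Of 16 goblet cell genes, 2 were called lower and 0 higher by edgeR and 4 lower by DESeq2. The edgeR share was 12.5%, beside 3.04% of all genes called lower. Their median log2 gain was -0.18, and leaving out 1 WT library moved it to between -0.32 (day 2 replicate 3) and -0.09 (day 7 replicate 3). Spink4, a secreted goblet cell protein, was at 281, 288 and 348 CPM in WT and 438, 427 and 431 CPM in KO at day 2. Spink4 was then at 334, 372 and 406 CPM in WT and 172, 228 and 186 CPM in KO at day 7. KO lay above WT at day 2 and below at day 7, with a log2 gain of -1.42 (SE 0.28, adjusted p = 0.00585). Creb3l4, a transcription factor of secretory cells, had a log2 gain of -0.88 (SE 0.19, adjusted p = 0.0131). Clca1 and Fcgbp, abundant mucus proteins, had log2 gains of -0.94 (adjusted p = 0.0652) and -0.92 (adjusted p = 0.0719). Of 18 tuft cell genes and 23 enterocyte genes 0 were called by edgeR, where 4 and 5 had an unadjusted p under 0.05, and by DESeq2 0 and 2 were called, of which Rbp2 was higher and Mep1a lower. The median log2 gain was -0.48 for tuft cell genes, with Dclk1 at -0.78 (adjusted p = 0.27) and Alox5 at -0.92 (adjusted p = 0.105), and 0.48 for enterocyte genes, with Rbp2 at 1.69 (adjusted p = 0.102), Fabp1 at 1.67 (adjusted p = 0.105) and Fabp2 at 1.48 (adjusted p = 0.146). Mep1a, a brush border metalloprotease, had the lowest value of that list, -1.44 (adjusted p = 0.117). The tuft median was -0.22 without KO day 7 replicate 1, and the enterocyte median 0.19 without WT day 2 replicate 3. In WT, 22 of the 23 enterocyte genes were lower at day 7 than at day 2.

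Interferon-stimulated genes are induced when a cell senses interferon. Of 28 tested, 7 were called higher and 0 lower (25%, beside 1.33% of all genes called higher), 27 had a positive gain, and the median log2 gain was 1.21. The median change from day 2 to day 7 was -0.09 in KO and -1.43 in WT, 27 of the 28 were lower at day 7 in WT, and for 6 of the 7 called members the WT change was the larger. Zbp1, a sensor of left-handed nucleic acid, was at 20.3, 13.3 and 19.4 CPM in WT and 12.8, 17.9 and 12.6 CPM in KO at day 2. Zbp1 was then at 6.98, 5.43 and 5.61 CPM in WT and 18.5, 11.3 and 15.1 CPM in KO at day 7. The WT libraries of day 7 were the lowest of the 12 and the other 9 overlapped, with a log2 gain of 1.601 (SE 0.38, adjusted p = 0.0225). Igtp, an immunity-related GTPase, was at 30.9, 28.2 and 74.8 CPM in WT and 19.9, 23.1 and 14.6 CPM in KO at day 2. Igtp was then at 9.89, 4.54 and 6.0 CPM in WT and 76.04, 18.1 and 12.7 CPM in KO at day 7, with a log2 gain of 3.58 (SE 0.82, adjusted p = 0.0272). Usp18, a feedback inhibitor of the response, had a log2 gain of 1.39 (adjusted p = 0.0247). Each of these 3 calls was lost without 5 or 6 of the 12 libraries in turn: Zbp1 up to 0.0628 and Usp18 up to 0.0842 without WT day 2 replicate 1, and Igtp up to 0.0703 without WT day 7 replicate 3. Without KO day 7 replicate 1 the log2 gain of Igtp was 2.39.

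Iigp1, a related GTPase, had the largest gain of the list, 5.03 (adjusted p = 0.0437). It was at 3.16, 3.16 and 5.05 CPM in WT and 1.33, 2.11 and 0.6903 CPM in KO at day 2. Iigp1 was then at 0.899, 0.128 and 0.175 CPM in WT and 13.2, 1.16 and 1.44 CPM in KO at day 7, with KO day 7 replicate 1 far above the other 11 libraries. Without that library its log2 gain was 3.03 (adjusted p = 0.0942), and its call was lost without 9 of 12 libraries, up to 0.105 without WT day 7 replicate 3. Ubd, a ubiquitin-like protein that interferon and TNF induce, is not in the list but was among the largest gains, and was at 11.8, 2.14 and 15.3 CPM in WT and 3.195, 4.62 and 6.08 CPM in KO at day 2. Ubd was then at 0.252, 0.383 and 0.701 CPM in WT and 20.1, 3.12 and 5.94 CPM in KO at day 7, with a log2 gain of 5.50 (SE 1.21, adjusted p = 0.0216). Its call was lost without KO day 2 replicate 1, KO day 7 replicate 1, WT day 7 replicate 1 or WT day 7 replicate 2, up to 0.0641, and with limma-voom, at 0.131. The list of interferon-stimulated genes held 0 called members without KO day 2 replicate 1 or WT day 7 replicate 2, and 13 with DESeq2. Of its members, Mx2 and Irgm1 were also called. The 7 tested MHC class II genes had a median log2 gain of 1.49 and 0 calls in edgeR, with 0 at an unadjusted p under 0.05 and 0 by DESeq2, and median changes of -0.55 in KO and -2.07 in WT. Without KO day 7 replicate 1 their median gain was 0.72. Their summed CPM reached 2247 in WT at day 2 against 706 in the lowest WT library of that day.

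The interferon-stimulated response element was searched as GAAA, any 2 bases and GAAA on both strands of the 250 bases before the RefSeq start. It was in 14 of the 19 listed genes with a promoter (73.7%), beside 3.22% of the tested genes with one, 4.71% of the 191 genes gained higher with one and 2.86% of the 454 gained lower. The promoters of Igtp (chr11:58199306-58199555, plus strand) and Irgm1 (chr11:48871421-48871670, minus strand) are shown because both were called, the other 5 of the 7 called members having no promoter in the table, and capitals mark 1 match in Igtp and 2 overlapping matches in Irgm1, all on the given strand.
Igtp: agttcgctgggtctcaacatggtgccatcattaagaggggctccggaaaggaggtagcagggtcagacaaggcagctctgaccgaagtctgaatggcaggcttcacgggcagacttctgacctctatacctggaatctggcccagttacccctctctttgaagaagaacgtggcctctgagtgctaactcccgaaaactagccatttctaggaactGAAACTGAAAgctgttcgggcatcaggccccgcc
Irgm1: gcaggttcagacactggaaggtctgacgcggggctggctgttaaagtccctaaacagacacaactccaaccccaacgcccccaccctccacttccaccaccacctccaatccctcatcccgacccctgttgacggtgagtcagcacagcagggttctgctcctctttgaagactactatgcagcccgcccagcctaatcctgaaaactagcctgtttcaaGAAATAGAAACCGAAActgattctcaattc

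Genes of the regenerative epithelium, a fetal-like state seen after injury, were called higher for 3 of 14 tested and lower for 0. This was 21.4%, beside 1.33% of all genes called higher, and the median log2 gain was 1.43. For all 3 called members the KO change was the larger, and 9 of the 14 were lower at day 7 in WT. Areg, the EGF receptor ligand amphiregulin, was at 8.82, 3.69 and 8.77 CPM in WT and 7.79, 4.39 and 7.16 CPM in KO at day 2. Areg was then at 1.69, 0.958 and 2.41 CPM in WT and 38.4, 23.9 and 18.7 CPM in KO at day 7. Areg was highest in KO at day 7, and the WT libraries of day 7 were the lowest of the 12, with changes of 2.07 in KO and -2.04 in WT, which gave a log2 gain of 4.10 (SE 0.57, adjusted p = 0.000743). Ly6a (Sca-1) was at 2.34, 1.16 and 3.12 CPM in WT and 1.07, 1.43 and 1.596 CPM in KO at day 2. Ly6a was then at 0.432, 0.639 and 0.745 CPM in WT and 14.9, 3.83 and 5.98 CPM in KO at day 7, with a log2 gain of 4.46 (SE 0.87, adjusted p = 0.00809). Il33, an alarmin, had a log2 gain of 1.62 (adjusted p = 0.0426) that lost its call without 8 of 12 libraries, up to 0.126 without KO day 7 replicate 1. Ereg, Clu and Anxa1 were not called by edgeR, at log2 gains of 1.99, 1.25 and 2.10, and for Ereg DESeq2 gave an adjusted p of 0.0192.

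The 10 largest gains, among called genes with a group mean of at least 1 CPM and no overlap at day 7, held genes of metabolism and transport beside Cbr3, Gstm1, Ubd and Iigp1. The KO change was larger than the WT change in 7 of these 10. Scd1, the desaturase that makes oleate, was at 4.14, 3.56 and 6.95 CPM in WT and 4.26, 3.08 and 5.13 CPM in KO at day 2. Scd1 was then at 6.94, 14.6 and 14.9 CPM in WT and 509, 153 and 105 CPM in KO at day 7, with a log2 gain of 4.63 (SE 0.77, adjusted p = 0.00456) and changes of 5.93 in KO and 1.30 in WT. G0s2, an inhibitor of the lipase ATGL, was at 1.27, 0.4003 and 1.52 CPM in WT and 0.865, 0.913 and 0.949 CPM in KO at day 2. G0s2 was then at 0.504, 0.447 and 0.394 CPM in WT and 16.1, 5.23 and 5.15 CPM in KO at day 7, with a log2 gain of 4.51 (SE 0.80, adjusted p = 0.00402). Slc7a3, a transporter of cationic amino acids, was at 0.164, 0.133 and 0.149 CPM in WT and 0.333, 0.228 and 0.129 CPM in KO at day 2. Slc7a3 was then at 0.144, 0 and 0.175 CPM in WT and 5.74, 3.86 and 4.98 CPM in KO at day 7. The KO libraries of day 7 stood apart from the other 9, which held 0 to 5 fragments, so the value depends on the prior count, with a log2 gain of 4.75 (SE 0.92, adjusted p = 0.00584). Acyp2, an acylphosphatase, was at 0.41, 0.489 and 0.52 CPM in WT and 0.466, 0.171 and 0.388 CPM in KO at day 2. Acyp2 was then at 0.07196, 0 and 0.131 CPM in WT and 1.69, 1.299 and 1.09 CPM in KO at day 7, with a log2 gain of 4.55 (SE 0.72, adjusted p = 0.00119); its WT libraries of day 7 held 0 to 3 fragments, so this value depends on the prior count.

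Ccdc42 and Moxd2 had the remaining places, and each held at most 5 fragments in the other 9 libraries of days 2 and 7, so their fitted folds depend on the prior count. Ccdc42, a coiled-coil protein of sperm cells, was at 3.91, 0.772 and 0.4803 CPM in KO at day 7 with 0 fragments in the 3 WT libraries of that day, which is at least 11.98-fold higher when WT is set to 3 fragments per library. Without KO day 7 replicate 1, the highest of the 3, this bound was 4.36-fold. Its adjusted p was 0.0249, and 0.117 without WT day 2 replicate 3. Moxd2, a monooxygenase related to dopamine beta-hydroxylase, was at 4.98, 2.32 and 2.01 CPM in KO at day 7 and at 0.108, 0 and 0 CPM in WT, with an adjusted p of 0.0109 that was 0.063 without WT day 2 replicate 3. Day 2 libraries of Moxd2 held 1 to 3 fragments.

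The 10 largest losses moved more in KO than in WT in all 10 cases. Slc2a13, a transporter of myo-inositol, was at 6.64, 6.63 and 5.46 CPM in WT and 6.12, 3.25 and 5.31 CPM in KO at day 2. Slc2a13 was then at 7.66, 9.201 and 6.48 CPM in WT and 0.489, 0.386 and 0.437 CPM in KO at day 7. All KO libraries of day 7 were below every other library, with a log2 gain of -3.79 (SE 0.42, adjusted p = 5.99e-05). Echdc3, a protein of the enoyl-CoA hydratase family, was at 1.89, 2.18 and 1.82 CPM in WT and 1.26, 1.198 and 1.47 CPM in KO at day 2. Echdc3 was then at 1.91, 3.07 and 2.72 CPM in WT and 0.0889, 0.0702 and 0.175 CPM in KO at day 7, with a log2 gain of -3.90 (SE 0.52, adjusted p = 0.000249). Nr2e3, a nuclear receptor known from photoreceptors, was at 4.18, 3.91 and 2.56 CPM in WT and 2.995, 2.97 and 2.76 CPM in KO at day 2. Nr2e3 was then at 3.31, 4.66 and 3.28 CPM in WT and 0.133, 0.386 and 0.437 CPM in KO at day 7, with a log2 gain of -3.22 (SE 0.42, adjusted p = 0.000235). Scml2, a Polycomb protein, had a log2 gain of -3.63 (SE 0.58, adjusted p = 0.00134). The eye lens crystallin Crybb3 had a log2 gain of -3.40 (SE 0.71, adjusted p = 0.00986), and the sulfotransferase Chst2 a log2 gain of -3.04 (SE 0.64, adjusted p = 0.00996).

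Rdh1, a retinol dehydrogenase, held 0 to 3 fragments in KO at day 7 and was at 0.0889, 0.105 and 0 CPM there against 0.899, 1.47 and 0.745 CPM in WT, with an adjusted p of 0.00576, and shares 11.8% of its exonic bases with Rdh16f1. Cyp2e1, an ethanol-metabolising cytochrome P450, had a log2 gain of -3.16 (SE 0.70, adjusted p = 0.014), and an adjusted p of 0.0554 without KO day 7 replicate 1. Mptx1, a mucosal pentraxin, had a log2 gain of -2.94 (SE 0.59, adjusted p = 0.00705). Mir6969 lies in an intron of Clps, one of the Paneth genes above, on the same strand, and reads of the long RNA of Clps cannot be told from it, so its value of -2.94 (adjusted p = 0.022, and 0.07 without KO day 7 replicate 1) is not one of a mature miRNA.

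**Figure D4:**
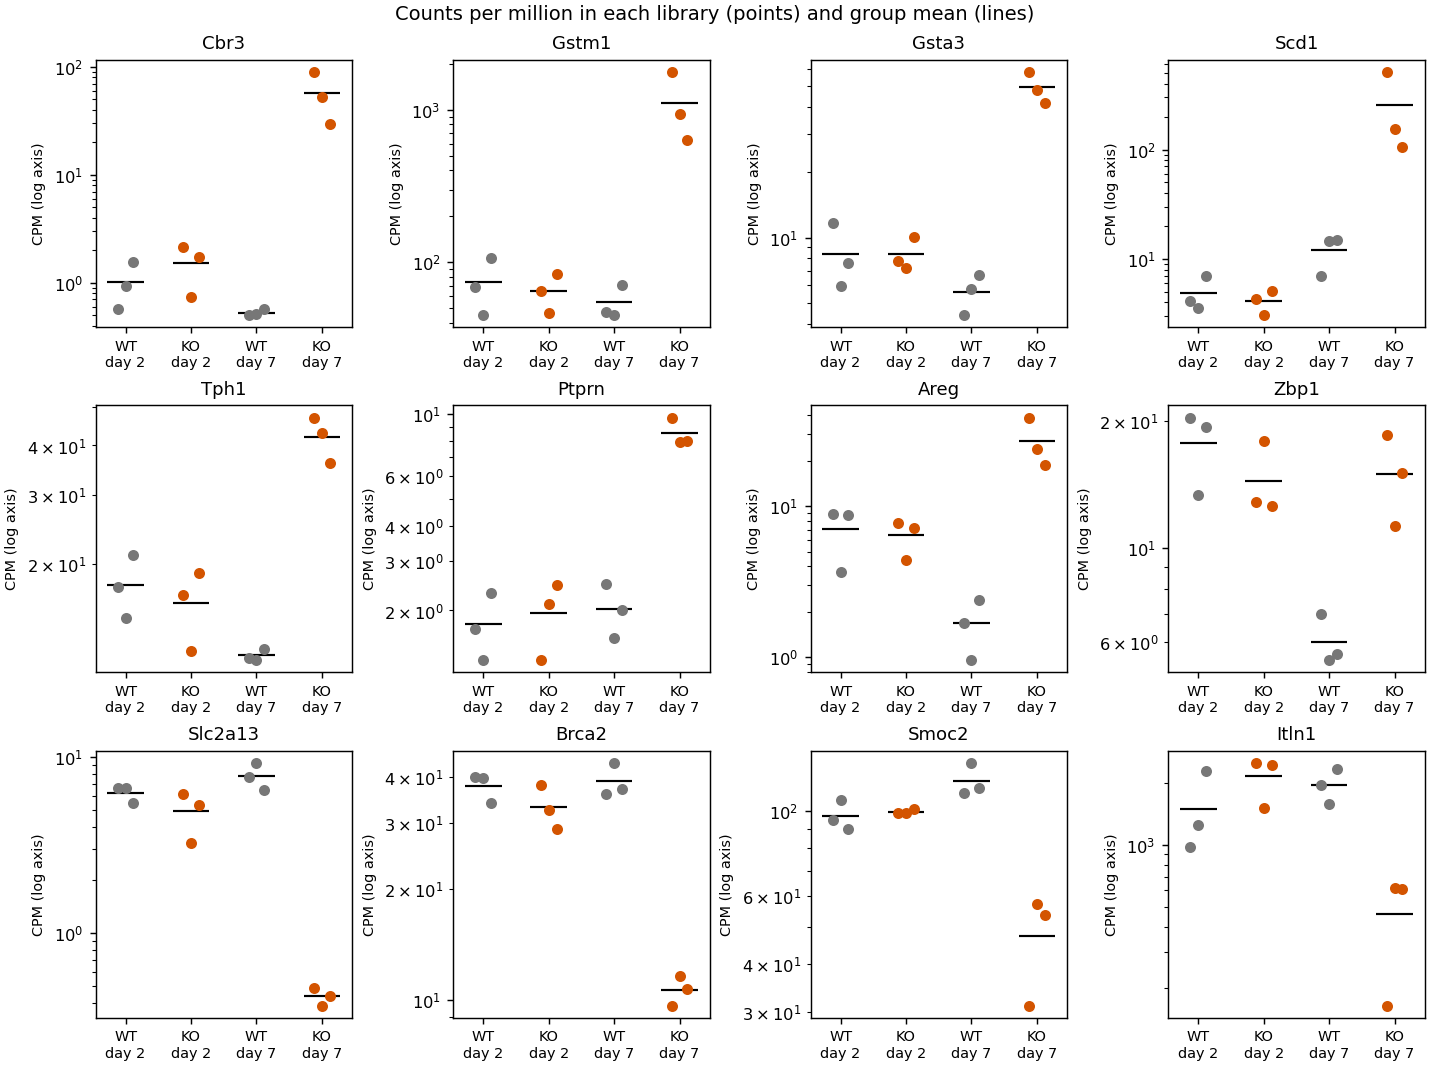
CPM on a log axis for 12 genes named in the text, with 1 point for each of the 3 libraries of a group and a line at the group mean; WT is grey and KO orange. In Cbr3, Gstm1, Gsta3, Scd1, Tph1 and Ptprn the KO libraries of day 7 stand above the 9 others, in Slc2a13, Brca2, Smoc2 and Itln1 below them, and in Zbp1 the WT libraries of day 7 stand below the rest.

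Among DNA repair and growth genes, calls were single members. Of 21 genes of homologous recombination and Fanconi repair, 1 was called (4.76%, near the 4.37% of all genes), which was Brca2, a gene of homologous recombination. It was at 40.02, 39.9 and 34.02 CPM in WT and 38.01, 32.7 and 29.03 CPM in KO at day 2. Brca2 was then at 36.1, 43.7 and 37.3 CPM in WT and 9.65, 11.6 and 10.7 CPM in KO at day 7, and the KO libraries of day 7 were below every other library, with a log2 gain of -1.68 (SE 0.20, adjusted p = 0.000105). Of 25 DNA replication and 24 mitosis genes 0 were called by edgeR, 2 of each had an unadjusted p under 0.05, 0 were called by DESeq2, and the medians were -0.29 and -0.22, with Kif11 at -0.54 (adjusted p = 0.132) and Chaf1b at -0.65 (adjusted p = 0.114). Without KO day 7 replicate 1 these medians were -0.16 and -0.11. Of 24 p53 targets 1 was called by edgeR (4.17%, near the 4.37% of all genes). Plk3 was higher at 1.37 (adjusted p = 0.0447), which did not hold without 8 of 12 libraries, up to 0.129 without KO day 7 replicate 1. Cdkn1a was not called by edgeR, at 1.14 (adjusted p = 0.103), but was called by DESeq2 (adjusted p = 0.0412).

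Among the arginine methyltransferases, Prmt3 was called lower. It was the 1 call among 7 tested relatives of Prmt1 (14.3%, beside 4.37% of all genes). Prmt3, which methylates a ribosomal protein, was at 25.4, 27.5 and 22.7 CPM in WT and 28.5, 26.7 and 28.7 CPM in KO at day 2. Prmt3 was then at 25.04, 31.2 and 27.9 CPM in WT and 16.2, 19.6 and 20.6 CPM in KO at day 7, with a log2 gain of -0.72 (SE 0.19, adjusted p = 0.0394). The call was lost without 9 of 12 libraries, up to 0.146 without KO day 7 replicate 1. Prmt7, Prmt2 and Prmt5 had log2 gains of -0.41, 0.43 and -0.14.

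Of 15 circadian clock genes tested, 1 was called higher and 1 lower (13.3%, beside 4.37% of all genes), and the median log2 gain was 0.05. Per3, a repressor arm gene, was at 49.6, 45.9 and 24.4 CPM in WT and 24.96, 43.02 and 27.6 CPM in KO at day 2. Per3 was then at 26.4, 44.02 and 27.1 CPM in WT and 5.51, 4.91 and 6.99 CPM in KO at day 7, with a log2 gain of -2.16 (SE 0.38, adjusted p = 0.00423). Arntl (BMAL1), an activator arm gene, had a log2 gain of 0.96 (SE 0.25, adjusted p = 0.0326), which was lost without 7 of 12 libraries, up to 0.0777 without KO day 2 replicate 3. Dbp and Npas2 had log2 gains of -1.35 (adjusted p = 0.181) and 0.65 (adjusted p = 0.155). The hour of collection is not given in the sources used here, and its part was not tested.

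Cyp2u1, a fatty acid hydroxylase, was at 27.1, 21.2 and 25.4 CPM in WT and 22.2, 26.6 and 24.4 CPM in KO at day 2. Cyp2u1 was then at 26.8, 33.1 and 31.2 CPM in WT and 7.204, 6.04 and 5.59 CPM in KO at day 7, with a log2 gain of -2.26 (SE 0.23, adjusted p = 3.82e-05), and was the 1 call among the 17 cytochrome P450 genes of the list (5.88%), which does not hold Cyp2e1 above. Cpt2, which moves fatty acids into mitochondrial oxidation, had a log2 gain of -1.11 (SE 0.26, adjusted p = 0.0194), lost without 3 libraries (up to 0.0567 without WT day 2 replicate 1), the 1 call among 21 genes of fatty acid oxidation (4.76%). Both shares are near the 4.37% of all genes. Of 23 genes of the integrated stress response, 14 had a positive gain, the median was 0.23 (0.0732 without WT day 2 replicate 3 and 0.39 without KO day 7 replicate 3), and the unadjusted p was under 0.05 for 5 genes with a positive and 2 with a negative gain. The 2 called (8.70%, beside 4.37% of all genes) were both lower, and without KO day 7 replicate 3 another 2 were called higher. Both act in mitochondrial amino acid and carbon metabolism: Pck2, with a log2 gain of -0.98 (SE 0.17, adjusted p = 0.00294), and Pycr1, with a log2 gain of -1.75 (SE 0.40, adjusted p = 0.0159), whose adjusted p was 0.0541 without WT day 7 replicate 3. Atf5 was not called, at 1.25 (adjusted p = 0.12). Of 22 cholesterol, 18 unfolded protein response, 29 ribosome biogenesis and 15 immediate early genes 0 were called by edgeR, 2, 1, 4 and 1 had an unadjusted p under 0.05, and DESeq2 called 1 of the cholesterol genes and 0 of the others.

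Markers of non-epithelial cells were checked as whole lists. Of 18 T cell and intraepithelial lymphocyte genes, 8 B and plasma cell genes, 9 myeloid genes and 7 endothelial, glial and neuronal genes tested, 0 were called by edgeR or DESeq2, and 0, 0, 0 and 3 had an unadjusted p under 0.05. Of 15 stromal genes 1 was called (6.67%, beside 4.37% of all genes). It was Vim, with a log2 gain of 1.29 (SE 0.32, adjusted p = 0.0255), a call lost without 6 of 12 libraries, up to 0.0641 without KO day 2 replicate 1. The stromal median log2 gain was 0.89, and 0.47 without WT day 2 replicate 3, and the summed CPM of the list were 74.9 to 184 in WT and 35.8 to 135 in KO at day 2, and 40.9 to 83.3 and 59.1 to 116 at day 7, overlapping on both days. The endothelial, glial and neuronal genes, with a median log2 gain of 0.90 (0.46 without WT day 7 replicate 2), summed to 5.54 to 7.503 CPM in WT and 6.06 to 7.93 CPM in KO at day 2. At day 7 they summed to 6.07 to 8.76 and 9.23 to 15.7 CPM, without overlap. T cell genes summed to 232 to 324 CPM in WT and 277 to 331 CPM in KO at day 2 and 103 to 262 and 141 to 216 CPM at day 7. Epithelial identity genes summed to 5900.4 to 8806, 6489 to 8698, 5181 to 6222 and 5020.2 to 7319 CPM in the same order, and 0 of 10 were called by edgeR and 1 by DESeq2, with 2 at an unadjusted p under 0.05. No defining marker was at 0 in all 12 libraries, and the part of other cells in the gains was not tested.

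The 7 genes already called between KO and WT at day 2 (0.0328% of those tested) were not among the 934. Prmt1 and Esr1 are given above. Phlda3, a p53 target, was at 0.656, 0.489 and 0.594 CPM in WT and 2.796, 1.43 and 4.75 CPM in KO at day 2. Phlda3 was then at 0.756, 0.831 and 0.438 CPM in WT and 2.62, 3.69 and 2.14 CPM in KO at day 7. KO was above WT on both days, with a log2 gain of -0.29 (adjusted p = 0.854). Acta1, a muscle actin, was at 1.52, 0.578 and 1.11 CPM in WT and 5.13, 4.22 and 6.21 CPM in KO at day 2. Acta1 was then at 1.799, 1.85 and 1.23 CPM in WT and 1.82, 2.703 and 3.14 CPM in KO at day 7; KO was above WT at day 2 and near it at day 7, with a log2 gain of -1.61 (adjusted p = 0.106). Gm13394 and Gm44215 were higher in KO on both days, with log2 gains of 1.18 (adjusted p = 0.378) and -1.27 (adjusted p = 0.181). Gm45063 held 0 fragments in all WT libraries, and KO was at least 3.56-fold above WT at day 7, with WT set to 3 fragments per library. These genes were chosen for their day 2 difference, so their levels are a description.

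Features of gene structure are given as a description, with no test. Exonic length had a median of 3504 bases in the genes gained higher, 3923 in those gained lower and 3060 over all genes tested. The medians of exon blocks were 7, 9 and 6, and of genomic span 18.1, 20.2 and 12.9 kb. Protein-coding genes made up 82.4%, 85.2% and 67.4% of the genes with a GENCODE vM21 biotype, and longer and coding genes draw more fragments. Among the 934 genes, 71 were in any of the 31 lists and 863 in none.

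The 6 libraries of day 14 come from mice that the gain did not use, although all 18 libraries set the spread of each gene. KO against WT at day 14 was called for 7.92% of all genes tested, with 3.23% higher and 4.69% lower. Of the 285 genes gained higher, 158 (55.4%) were called higher at day 14, and of the 649 gained lower, 420 (64.7%) were called lower. None of the 934 was called in the opposite direction, and 277 of 285 and 644 of 649 had the same sign. The median KO effect was 0.84 and -0.81 at day 14, beside 1.26 and -1.23 at day 7; the genes were chosen on a gain that contains the day 7 effect, so only the day 7 medians carry that choice. Leaving out 1 of the 18 libraries moved the shares between 39.9% and 78.6% for the genes gained higher and between 51.7% and 83.5% for those gained lower, where the highest values came without KO day 7 replicate 1 and the lowest without KO day 7 replicate 3 and WT day 14 replicate 2.

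List counts at day 14 follow, with no test between lists or days, beside 3.23% of all genes called higher and 4.69% called lower. Granule genes were called higher for 14 of 22 members and hormone genes for 8 of 14, with medians of 0.86 and 1.01. Ghrl, the gene of ghrelin, was called lower at day 14, at -0.90 (adjusted p = 0.00246), and Tph1 stood at a log2 KO effect of 2.18 (adjusted p = 1.25e-06) after 1.85 at day 7. Enteroendocrine transcription factors were called higher for 12 of 23, with a median of 0.86 after 0.57 at day 7. The gain had called 1 of them higher, but it sets the day 7 effect against that of day 2. It was called for 4.37% of all genes, beside 7.92% at day 14, so the 2 counts are not alike. NRF2 targets were called for 6 of 28, with a median of 0.54 after 1.32, and Nqo1, Gclc and Gclm were not called at day 14, at 0.36, 0.33 and 0.32. Paneth genes were called lower for 1 of 18 (median -1.05 after -2.01), which is near the share of all genes. Stem cell genes were called lower for 3 of 22 (median -0.26 after -0.68). Mitosis genes were called lower for 10 of 24 (median -0.49 after -0.17), and the gain, a different comparison, had called none of them. Interferon-stimulated genes were called higher for 1 of 28, also near the share of all genes. Their median was 0.17 after 0.88, and Igtp and Iigp1 stood at -0.14 and -0.20. Brca2 (-1.55, adjusted p = 2.83e-06), Slc2a13 (-3.69, adjusted p = 1.73e-06) and Nr2e3 (-4.26, adjusted p = 1.25e-06) were called lower at day 14, while Per3 (-0.69) and Ly6a (0.32) were not called. Whether the effect differed between day 7 and day 14 was not tested.

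**Figure D5:**
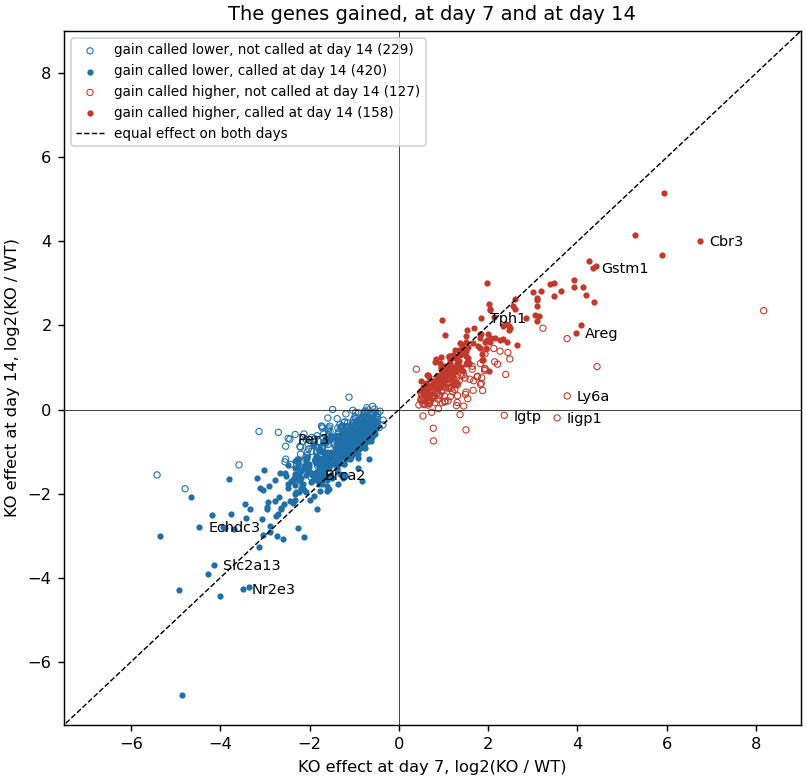
Each point is 1 of the 934 genes gained, with the log2 ratio of KO to WT at day 7 on the horizontal axis and at day 14 on the vertical axis; filled points were called at day 14 and open points were not, and the dashed line marks equal effects. The medians at day 14 are 0.84 and -0.81 beside 1.26 and -1.23 at day 7, on which the genes were in part chosen, with Igtp, Iigp1 and Ly6a near 0 at day 14 and Nr2e3 beyond the line.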

How the data were processed

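RNA-seq of small intestinal crypts was deposited as 1 table of raw counts for 18 libraries. The authors aligned paired reads with STAR 2.7.3 to mm10 and counted fragments per gene with featureCounts 1.6.4, without strand and with a fragment counted for each gene it overlaps; HTSeq also stands in the submitters' processing notes, and the deposited counts carry no normalization. Fragments that map to several places were not counted, so near-identical copies are undercounted. Library totals were 12844642 to 31493484. The exonic length in the table served only for the description of structure. The 20 genes that the study excluded were left out first. edgeR 4.0.16 (TMM, expression filter by group, robust quasi-likelihood fit with 1 mean per group over 18 libraries, Benjamini-Hochberg over 21349 genes) gave the gain and the day 14 effect; a call is an adjusted p under 0.05. CPM use the library totals scaled by TMM. Fold changes carry a prior count, and genes at 0 are bounded with 3 fragments per library. Genes were named by rule: Prmt1 and Esr1, the 10 largest gains each way among genes without overlap at day 7 and with a group mean CPM of at least 1, up to 4 members per list by unadjusted p, and the genes called at day 2; other names were chosen after their values were seen, and some genes that the rule names are not reported here. The members and the lists were chosen with earlier results of these data known. Alternatives were DESeq2 1.42.0, limma 3.58.1 (voom), other scalings and filters, blocks by replicate number and each library left out; fits with Xist were added after seeing the data. The fit was tested on simulated data. The SE and p-values of the fit carry the spread between libraries of a group, and replicates are 3 per group. Motifs were searched in RefSeq promoters of GRCm38.p6, and gene models came from GENCODE vM23 in the file and vM21 biotypes.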

Additional observations from a re-analysis of the deposited data

Results flagged for a closer look

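The gain is itself a test of whether the KO effect differed between 2 time points, and it passed for 285 genes in the higher and 649 genes in the lower direction. For 36 of the 285, all 3 KO libraries were below all 3 WT libraries at day 2 and above them at day 7, and for 47 of the 649 the reverse held. Over all 21349 genes tested these orders were seen for 79 (0.37%) and 109 (0.511%), and the genes were chosen on a gain that contains both days, so nothing is read from the difference.

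Among the genes named in the text, 7 called ones changed sides in this way in every library. The log2 gain was 1.72 for Neurod1, -1.42 for Spink4, -1.93 for Nkd1, 1.39 for Usp18, 3.58 for Igtp, 5.03 for Iigp1 and 2.72 for Vgf. The day 2 effects were -0.51, 0.50, 0.55, -0.44, -1.22, -1.48 and -0.71, and none of them was called at day 2.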

How the results depend on the processing

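The count of genes gained was between 777 and 1401 under 10 other settings and between 431 and 1295 without 1 library (103 to 494 higher, 328 to 801 lower). DESeq2 called 512 genes higher and the block of day and replicate number 526. The share of genes gained higher that were called at day 14 was 48.1% with only the groups compared in the fit, and 39.9% to 78.6% without 1 library. For those gained lower it was 60.2% with DESeq2, 57.6% with only the groups compared, 60.2% with the block of day and replicate number and 58.7% with limma-voom, and 51.7% to 83.5% without 1 library. Of the 934 genes, 426 to 851 were also called without 1 library. The cause of these moves was not tested, and leaving out a library also leaves fewer samples.

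Replicate numbers did not meet the rule used to treat mice as paired, which cannot exclude that they were. The correlation of deviations between same-numbered KO and WT libraries was 0.05, 0.16 and 0.38 at day 2, -0.16, 0.21 and 0.08 at day 7 and 0.23, 0.18 and 0.16 at day 14. Each library correlated best with its own number at day 14, but not at days 2 and 7. Both libraries were high, or both low, for Xist in all 9 same-numbered pairs of a day; the methods give matching by gender, but not that a number marks a pair. The replicate block of day and number called 1366 genes and that of the number alone 852; Scd1 had an adjusted p of 0.0572 under the first and 0.0101 under the second.

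The gains of single genes printed here that turned sign were of genes not called, and the median gain of the circadian clock list, 0.05, turned sign in 4 of 24 settings (-0.17 to 0.12). Without 1 library, Lck ranged from -0.70 to 0.0482, Itgae from -0.56 to 0.0669, Mzb1 from -0.99 to 0.17, Jchain from -0.0857 to 0.48 and Cd79b from -0.32 to 0.50.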

Other observations

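The gains with the smallest p-values, chosen after their values were seen, were mostly of genes outside the lists. Btbd2, a BTB domain protein, was at 19.6, 20.4 and 23.1 CPM in WT and 20.04, 20.4 and 20.8 CPM in KO at day 2. Btbd2 was then at 23.03, 24.02 and 22.3 CPM in WT and 2.802, 3.93 and 3.89 CPM in KO at day 7. The KO libraries of day 7 were the lowest of the 12, which gave a log2 gain of -2.66 (SE 0.23, adjusted p = 9.93e-06) and a KO effect of -2.48 at day 14. Arsb, the lysosomal arylsulfatase B, had a log2 gain of -2.44 (adjusted p = 3.82e-05) and was at 1.56, 2.07 and 2.79 CPM in the KO libraries of day 7 and 11.5, 11.2 and 12.4 CPM in the WT libraries. Man2c1, an alpha-mannosidase, and Hlcs, which attaches biotin to carboxylases, had log2 gains of -1.36 and -1.94. Qsox2, a sulfhydryl oxidase, and Tmem260 had -1.73 and -1.50. Gprin1, a G protein-regulated inducer of neurite outgrowth, was higher, at 6.56, 5.38 and 11.4 CPM in WT and 7.19, 8.44 and 7.68 CPM in KO at day 2. Gprin1 was then at 7.38, 4.22 and 7.14 CPM in WT and 62.03, 46.9 and 54.3 CPM in KO at day 7, with a log2 gain of 3.11 (adjusted p = 3.82e-05). With Cyp2u1, Gsta3 and Slc2a13, these 10 genes kept an adjusted p of at most 0.000601 over 24 alternatives.

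Among the libraries with a high Xist level, those of KO mice had 785 and 901 CPM at day 7, 813 CPM at day 14 and 1402 CPM at day 2. Those of WT mice had 2387 and 2164 CPM at day 7, 1757 CPM at day 14 and 1088 CPM at day 2. With 1 or 2 such libraries per group, these values were not tested.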
